A study of Mus musculus with 40 samples.

Results

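CT26 tumors from mice given an antibody against TGF-β alone were compared with tumors from mice given an isotype control antibody. The comparison takes in 10 of the 40 mice of the experiment, 5 labelled anti-TGFb and 5 labelled mIgG2a - Isotype control, and each mouse gave 1 RNA-seq library. CT26 is a colon carcinoma line of BALB/c mice, and 1000000 CT26 cells were injected under the skin of BALB/c mice that were 6 to 12 weeks old and for which no engineered allele is stated. The antibodies were injected intraperitoneally on days 6, 9 and 12, and pieces of tumor were taken on day 13 for total RNA. The anti-TGF-β antibody was clone 1D11, which neutralizes the 3 TGF-β isoforms, and the control was motavizumab, an antibody against a viral protein, as mouse IgG2a. The other groups received an antibody against GARP:TGF-β1 complexes (clone 58A2, as wild-type or Fc-dead IgG2a), an Fc-silent antibody against PD-1, or the antibody against PD-1 together with clone 1D11 or with a form of 58A2.

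TGF-β is secreted in a latent form, bound to its own propeptide and to carriers such as the LTBP proteins or GARP, and acts only after release. The active cytokine binds TGFBR2 and TGFBR1, which phosphorylate SMAD2 and SMAD3, and these enter the nucleus with SMAD4 to regulate target genes, among them genes of matrix proteins and of feedback inhibitors such as SMAD7. In tumors it is known for driving fibroblast activation and matrix deposition, for supporting regulatory T cells and for restraining cytotoxic T cells and NK cells.

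The 5 isotype libraries held 12762129 to 16232524 counts and the 5 anti-TGF-β libraries 12109591 to 15506517, and the difference in totals was within the spread between mice (2-sided exact permutation test, p = 0.611; the smallest p that 5 against 5 mice allow is 0.00794). Levels are given as CPM, counts scaled to a library of 1000000, where 1 CPM stood for 12.3 to 16.3 counts in these libraries. Mice are named by the library number in the labels, isotype mice 46, 51, 63, 74 and 78 and anti-TGF-β mice 43, 48, 59, 72 and 79. Libraries numbered 41 to 60 held Y-linked transcripts and almost no Xist, and libraries 61 to 80 held Xist and no Ddx3y. Of the mice compared, 2 isotype and 3 anti-TGF-β mice fell in the first range and 3 and 2 in the second. For a part of the genes and lists, differences are therefore also given within each range.

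Anti-TGF-β mouse 48 stood apart from the other 9. Its median correlation with the others over genes was 0.946, against 0.982 to 0.985 for each of the others, and it held the highest level of the 10 mice in 4141 of 14760 genes (28.1%). Over all 40 mice it was the highest in 585 genes (3.96%, where an even share is 2.5%), and 5 mice of other groups were the highest in more, 616 to 3417 genes. Its levels of genes of other tissues and of blood were high: Adipoq, the fat cell hormone adiponectin, was at 60.9 CPM against 0.0786 to 9.52 CPM in the other 9 mice, the red cell gene Hbb-bs at 323 against 17.8 to 93.3 CPM, and the neutrophil receptor gene Cxcr2 at 21.2 against 0.278 to 2.60 CPM. Counts over all genes and over gene lists in this comparison are therefore given with and without it. A bulk sample cannot tell apart more cells of a type from more RNA per cell.

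No gene passed an adjusted p of 0.05 between anti-TGF-β and isotype tumors (0% of 14760 genes; edgeR's quasi-likelihood test with Benjamini-Hochberg adjustment, smallest adjusted p = 1.00). DESeq2's Wald test called 1 gene, Myh1, a myosin of skeletal muscle with 0 counts in the 5 isotype libraries, 17 in mouse 48, 1 in mouse 43 and 0 in the other 3. At an unadjusted p under 0.05 edgeR listed 342 genes (2.32%), 261 of them higher (1.77%) and 81 lower (0.549%) with anti-TGF-β, where evenly spread p-values would give 738. Without mouse 48 there were again 0 calls, and 127 of 14887 genes had an unadjusted p under 0.05 (0.853%), 76 higher (0.511%) and 51 lower (0.343%). The 463 genes that differed by a log2 value of 1 or more in either direction (3.14%) became 132 (0.887%) without that mouse. All gene-level differences between these groups therefore failed the adjustment over all genes, each with an adjusted p of 1.00, and are given as log2 fold changes, for the main genes with the standard error (SE). The p-values set each difference against a spread between mice of a group that was estimated from all 40 mice.

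**Figure D1:**
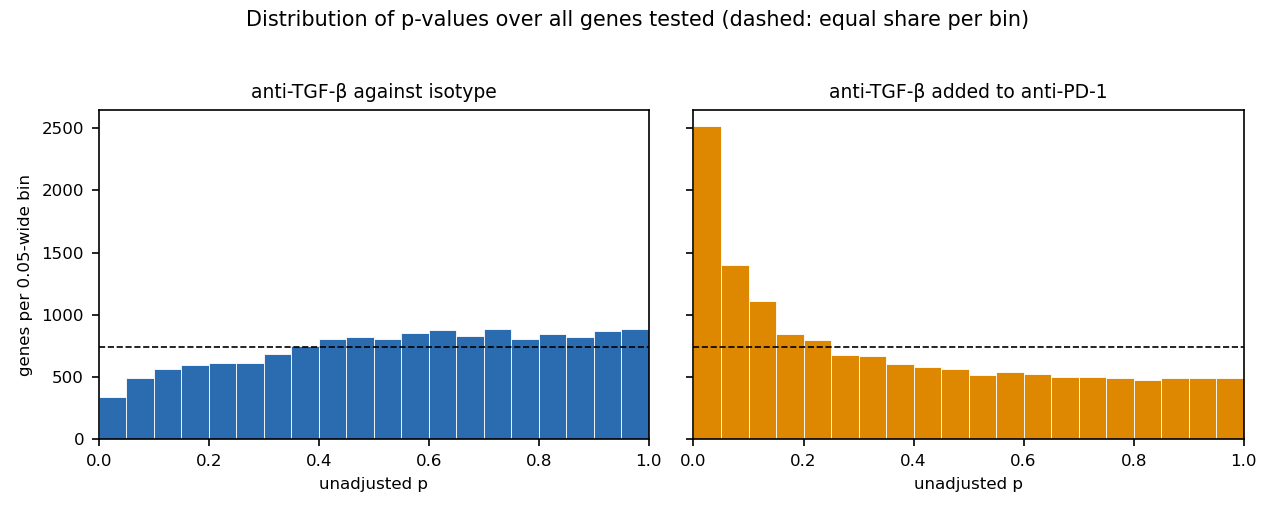
Number of genes per 0.05-wide bin of the unadjusted p, for anti-TGF-β against isotype (left) and for anti-TGF-β added to anti-PD-1 (right), each 5 against 5 mice and 14760 genes; the dashed line is an equal share per bin. The lowest bin holds 342 genes on the left and 2521 on the right.

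Among the genes in the higher direction were 3 chemokine genes, Ccl7, Ccl24 and Ccl12, which encode attractants of monocytes and eosinophils. Ccl7, at chr11:82045712-82047525 on the plus strand of GRCm38, was at 71.2, 55.9, 62.2, 63.3 and 56.0 CPM in isotype mice 46, 51, 63, 74 and 78, and at 72.1, 139, 80.5, 93.7 and 86.5 CPM in anti-TGF-β mice 43, 48, 59, 72 and 79. Every anti-TGF-β mouse lay above every isotype mouse, the narrowest gap being that of mouse 43. The log2 fold change was 0.61 (SE 0.18), it was 0.43 without mouse 48, and it was 0.56 and 0.57 within the first and second range of library numbers (0.27 in the first without mouse 48). Ccl24 was at 1.24, 1.27, 1.46, 0.707 and 1.45 CPM in the isotype mice and at 3.10, 5.15, 4.79, 1.95 and 1.72 CPM with anti-TGF-β, again with no overlap (log2 fold change 1.43, SE 0.49, and 1.22 without mouse 48). Ccl12 averaged 48.6 ± 7.84 CPM in isotype and 69.9 ± 6.42 CPM in anti-TGF-β tumors (SD, n = 5), and 4 of 5 anti-TGF-β mice lay above all isotype mice (log2 fold change 0.52, SE 0.21, and 0.57 without mouse 48). Ccl2, the close relative of Ccl7 and Ccl12, averaged 258 and 300.1 CPM (log2 fold change 0.22, SE 0.17, and 0.11 without mouse 48). Of the 38 tested genes of monocyte and lymphocyte chemokines and their receptors, 35 were higher on average (54.9% of all genes were), and at an unadjusted p under 0.05, 10 were higher (1.77% of all genes) and none lower. Without mouse 48, 24 of 38 were higher (49.2% of all genes), and 3 were at that p (0.511%). By range of library numbers, 31 of 38 were higher in the first (median 0.21) and 31 in the second (0.40). Without mouse 48 the first range had 12 of 38 higher (median −0.24), so there the list lay on the lower side.

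Chil3, a chitinase-like protein of alternatively activated macrophages and neutrophils, had the smallest p of the comparison. Its levels were low, at 0.618, 0.299, 0.278, 0.0786 and 0.346 CPM in the isotype mice and 0.653, 2.73, 1.52, 1.48 and 0.858 CPM with anti-TGF-β. The groups did not overlap, though mouse 43 with anti-TGF-β and isotype mouse 46 lay close together (log2 fold change 2.10, SE 0.58, and 1.74 without mouse 48). Chil3 has close paralogs, between which reads can be hard to assign. Nts, the precursor of the gut peptide neurotensin, was at 0.309, 0.672, 0.625, 0.393 and 0.485 CPM against 0.571, 5.77, 1.52, 2.09 and 0.980 CPM, so that mouse 43 lay within the isotype range (log2 fold change 2.12, SE 0.61, and 1.37 without mouse 48). Asap3, which encodes an activator of ARF GTPases at focal adhesions, was at 5.13, 4.78, 5.48, 5.50 and 4.71 CPM against 8.56, 8.58, 5.85, 6.73 and 7.78 CPM. Here mouse 48 did not stand out from mouse 43, and the groups did not overlap (log2 fold change 0.55, SE 0.16, and 0.50 without mouse 48). Slc25a53, a member of the mitochondrial carrier family, was at 4.26, 2.91, 3.68, 2.99 and 3.67 CPM against 5.30, 5.38, 5.47, 4.38 and 4.53 CPM, without overlap (log2 fold change 0.51, SE 0.16, and 0.48 without mouse 48). In all, 15 genes had all 5 anti-TGF-β mice above all isotype mice (0.102% of genes) and 12 had all 5 below (0.0813%). A random regrouping of 5 against 5 mice separates a gene fully, in either direction, with a probability of 0.00794. Both shares lie below that, so non-overlap alone does not set a gene apart. With mouse 48 left out, 47 genes had the other 4 above all isotype mice (0.318%) and 38 had them below (0.257%).

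Other leading genes in the higher direction moved with mouse 48. Cxcr2 had a log2 fold change of 2.47 with that mouse and 0.31 without it. Coch had 4.64 and then 1.95, Vsig4, a complement receptor of resident macrophages, 2.31 and then 0.92, and the iron exporter gene Slc40a1 1.81 and then 0.78. None of these 4 had an unadjusted p under 0.05 once mouse 48 was left out. Sarm1, an NAD-cleaving enzyme, kept its size (1.26 and 1.38), as did Enox1, an oxidoreductase of the cell surface (0.89 and 0.94), both at levels under 2 CPM.

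In the lower direction C1qtnf3, a secreted relative of adiponectin, had the largest log2 fold change of the 15 leading genes, −3.56 (SE 1.24). Its levels were 0.494, 0, 2.71, 0.629 and 0 CPM in the isotype mice and 0, 0.156, 0, 0 and 0.123 CPM with anti-TGF-β, so the groups overlapped, and the value ran from −4.16 without mouse 48 to −2.14 without isotype mouse 63. Ccng2, an unconventional cyclin known for restraining proliferation, was at 75.2, 96.3, 81.6, 99.8 and 84.4 CPM in the isotype mice and 71.5, 54.8, 88.5, 68.2 and 52.5 CPM with anti-TGF-β. Only mouse 59 of the anti-TGF-β mice lay within the isotype range (log2 fold change −0.38, SE 0.13, and −0.32 without mouse 48). Plod1, the lysyl hydroxylase that prepares collagen for cross-linking, was at 227, 218, 213, 282 and 194 CPM against 171, 182, 184, 205 and 183 CPM. Mouse 72 alone overlapped the isotype range (log2 fold change −0.29, SE 0.10, and −0.29 without mouse 48). Zfp395, a zinc finger transcription factor, was at 66.5, 70.2, 64.6, 72.0 and 62.8 CPM against 59.6, 48.3, 61.3, 61.8 and 52.1 CPM, all 5 below all isotype mice (log2 fold change −0.25, SE 0.08, and −0.20 without mouse 48). Its gene lies at chr14:65358389-65398930, that of Plod1 at chr4:147909753-147936767 and that of Ccng2 at chr5:93267257-93276231 (GRCm38).

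**Figure D2:**
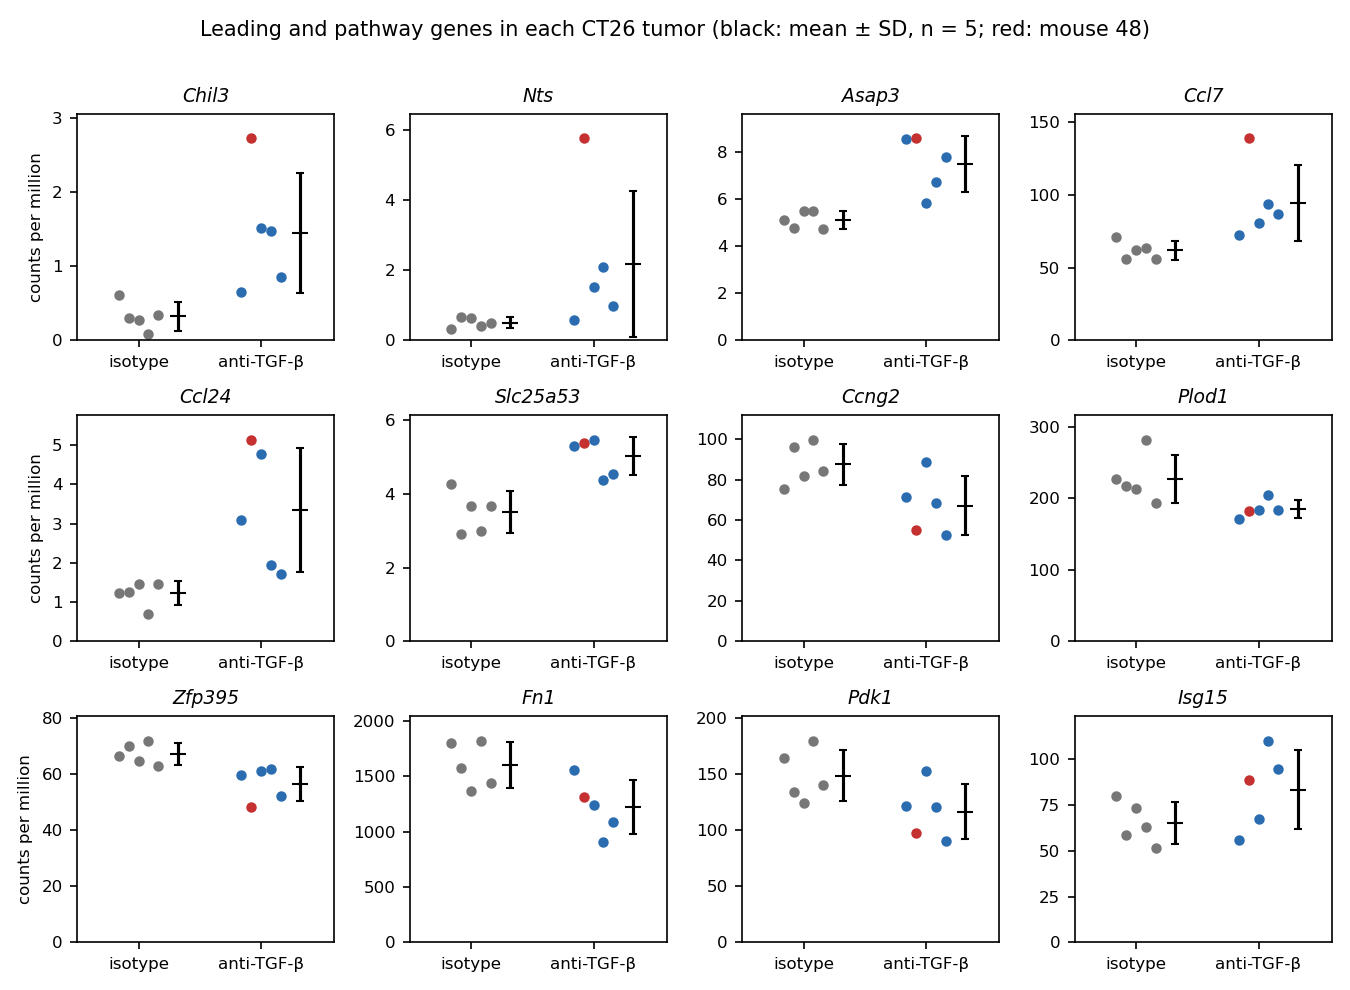
Levels of 12 named genes in CPM, 1 point per tumor, 5 isotype (grey) and 5 anti-TGF-β mice (blue, mouse 48 in red), with mean ± SD in black. Ccl7, Ccl24, Chil3, Asap3 and Slc25a53 lie higher and Zfp395 lower in every anti-TGF-β mouse than in every isotype mouse, and the other 6 genes overlap.

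The TGF-β pathway itself had no gene past the adjusted threshold in RNA. Tgfb1, the isoform that GARP carries, was at 89.4, 88.7, 109.7, 92.4 and 91.2 CPM in the isotype mice and 93.6, 122, 76.7, 91.5 and 86.0 CPM with anti-TGF-β. Mice 43 and 72 lay within the isotype range, mouse 48 above it and mice 59 and 79 below it, and the log2 fold change was −0.01 with a 95% interval of −0.34 to 0.33. Without mouse 48 it was −0.12. The log2 fold changes of Tgfb2 and Tgfb3 were 0.04 (SE 0.34) and −0.20 (SE 0.17), and −0.12 and −0.13 without mouse 48, and that of Lrrc32, which encodes GARP, was 0.62 with mouse 48 and 0.06 without it. Over 21 tested genes of ligands and latent TGF-β activation, 11 were higher and the median log2 fold change was 0.04, beside 0.01 over all genes. Without mouse 48, 6 of 21 were higher and the median was −0.05. The 1 member with an unadjusted p under 0.05 (1.77% of all genes were higher at that p) was Mmp9, a matrix protease that can release latent TGF-β (log2 fold change 0.50, and 0.34 without mouse 48). Of 14 receptor and Smad genes 5 were higher (median −0.03) and 1 without mouse 48 (median −0.06), and none had such a p. Tgfbr1 and Tgfbr2, the signaling pair, had log2 fold changes of −0.01 and 0.15, and Smad4 had −0.08 (−0.05, −0.07 and −0.04 without mouse 48).

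Feedback and direct target genes of TGF-β were split, with 19 of 35 higher and a median of 0.01, and with 10 of 35 higher and a median of −0.08 without mouse 48. Fn1, which encodes the matrix protein fibronectin, was at 1801, 1577, 1366, 1821 and 1436 CPM in the isotype mice and 1554, 1309, 1236, 908 and 1090.2 CPM with anti-TGF-β. Of the anti-TGF-β mice 4 lay below all isotype mice and mouse 43 lay within their range (log2 fold change −0.39, SE 0.20, 95% interval −0.80 to 0.01). The value was −0.42 without mouse 48, and −0.31 and −0.62 within the 2 ranges of library numbers (−0.28 in the first without mouse 48). Tgif1, a corepressor of SMAD-driven transcription, was at 92.5, 88.8, 94.3, 93.5 and 90.5 CPM against 93.2, 63.1, 85.8, 71.7 and 68.9 CPM. The isotype mice lay within a narrow band, 4 of 5 anti-TGF-β mice lay below it, and Tgif1 was the 1 member of the list with an unadjusted p under 0.05, where 0.549% of all genes were lower at that p (log2 fold change −0.26, SE 0.12, and −0.21 without mouse 48). The feedback inhibitor Smad7 averaged 30.1 and 25.8 CPM (log2 fold change −0.22, SE 0.13, and −0.17 without mouse 48). The chromatin protein gene Hmga2 averaged 412 and 340.3 CPM (−0.28, SE 0.16, and −0.23 without mouse 48), and the SMAD corepressor Skil 51.0 and 49.8 CPM (−0.04, SE 0.18, and −0.19 without mouse 48). A published signature of genes that TGF-β1 induced in human cells, matched by gene symbol, had 65 of 113 tested genes higher (median 0.03) with mouse 48 and 39 of 113 (median −0.08) without it, and its part measured in human CD4 T cells had 24 of 40 and then 16 of 40.

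Most genes of fibroblasts, collagens and other matrix proteins had a log2 fold change above 0 with mouse 48 in the anti-TGF-β group, and fewer had without it. Of 30 fibroblast genes 24 were above 0 with it (median 0.40) and 13 without it (median −0.04). Of 30 collagen genes 22 were above 0 and then 10 (medians 0.24 and −0.04), and of 46 matrix genes 34 and then 19 (0.38 and −0.04). Mouse 48 held the highest summed collagen level of the 40 mice of the experiment, 7925 CPM, where the other 4 anti-TGF-β mice held 2757 to 5115 CPM. For the summed level of the fibroblast and matrix genes it ranked 25 and 24 of 40 (6125 and 7359 CPM). The means of these sums were lower with anti-TGF-β, at 6214 ± 273 against 6670 ± 643 CPM in isotype tumors for fibroblast genes and 7009 ± 906 against 7477 ± 296 CPM for matrix genes (SD, n = 5), so the sums and the counts of genes pointed opposite ways. The fibrillar collagen gene Col1a1 averaged 374 and 533 CPM, a log2 fold change of 0.51 that was −0.01 without mouse 48, and Acta2, the smooth muscle actin of myofibroblasts, had 0.55 and then −0.17. For the summed level of adipocyte genes mouse 48 ranked 2 of 40 (3942 CPM, against 1008 to 1214 CPM in the other 4 anti-TGF-β mice), and 21 of 22 of these genes were above 0 with it and 3 of 22 without it. Whether neighboring tissue in the piece taken from mouse 48 had a part in these differences was not tested.

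**Figure D3:**
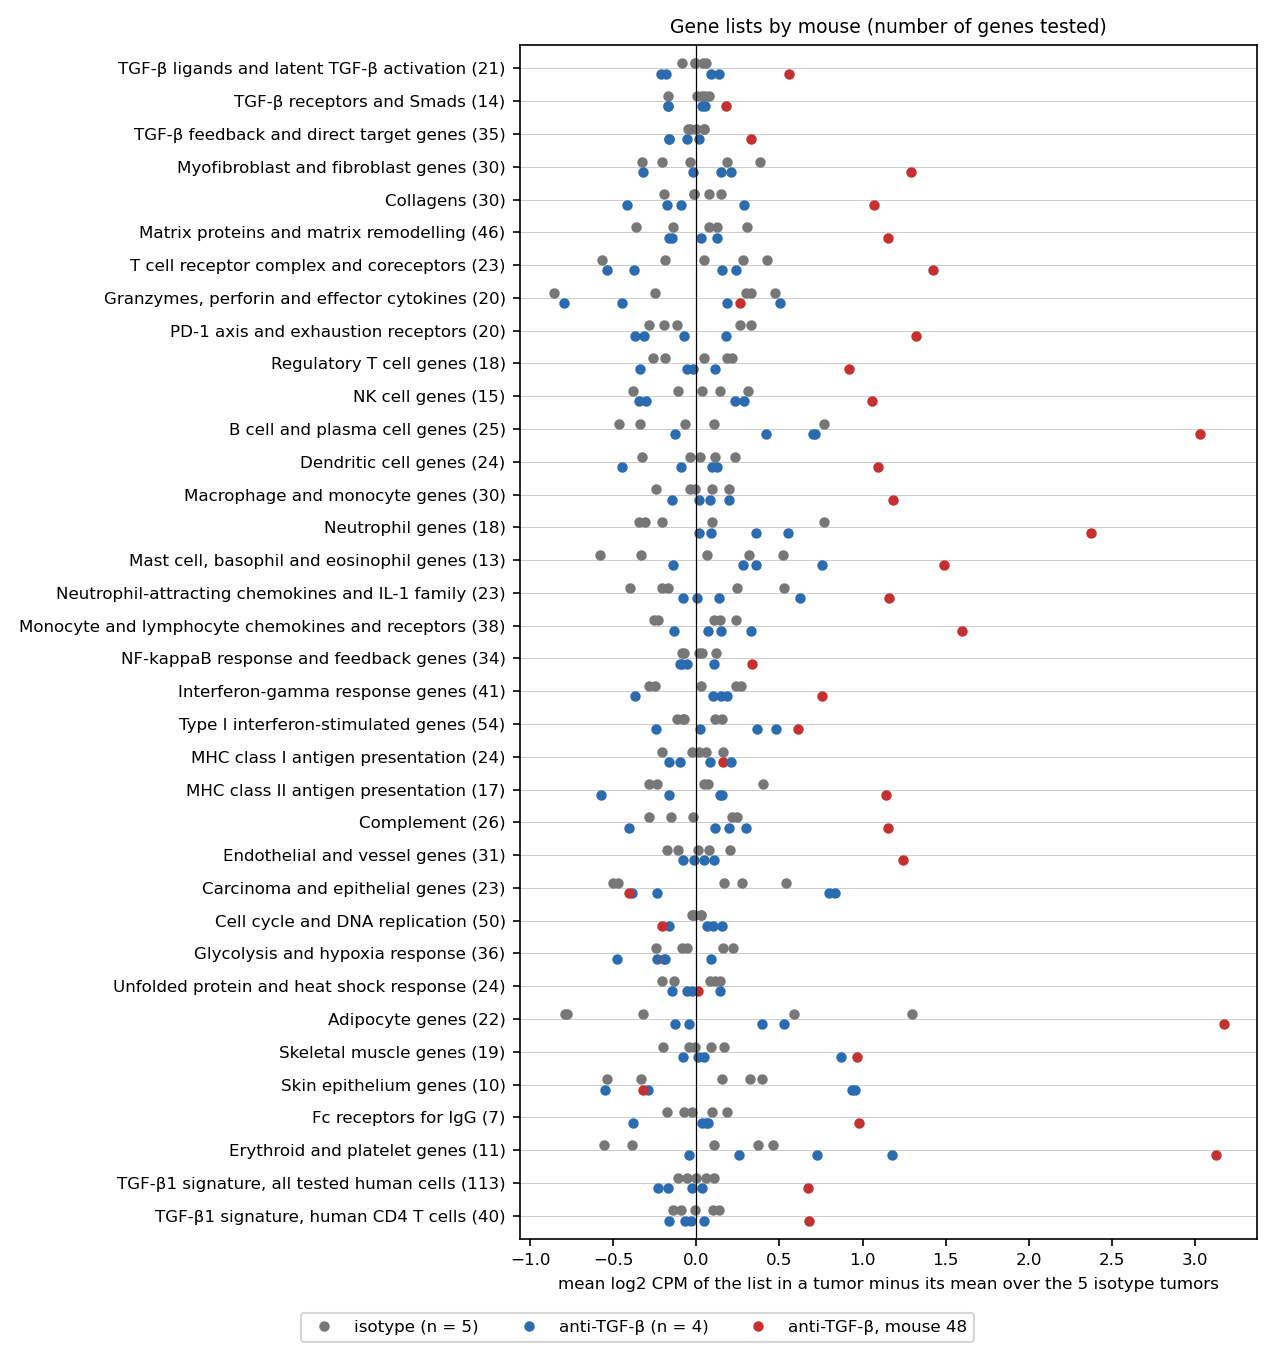
Mean log2 CPM of each gene list in each tumor, as the difference from the mean of the 5 isotype tumors (horizontal axis); the number of genes tested is in brackets, isotype mice are grey, anti-TGF-β mice blue and mouse 48 red. Mouse 48 lies far to the right of all others for most immune, stromal, adipocyte and blood lists, up to 3.17 for adipocyte genes, and the other 4 anti-TGF-β mice mostly lie among the isotype mice.

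Among lymphocyte genes, those of T cells varied widely between mice. Cd8a, a coreceptor chain of CD8+ T cells, was at 18.2, 21.97, 12.9, 18.2 and 6.51 CPM in the isotype mice and 8.56, 39.7, 6.15, 15.4 and 22.9 CPM with anti-TGF-β. Both groups spanned low and high mice (log2 fold change 0.26, SE 0.64, 95% interval −1.05 to 1.56), and the sign turned without mouse 48 (−0.22). Over 23 genes of the T cell receptor complex and coreceptors 20 were higher with mouse 48 and 5 without it. At an unadjusted p under 0.05, 3 of the 23 were higher with mouse 48 (1.77% of all genes were) and 0 without it (0.511%). Cd4, the coreceptor of helper and regulatory T cells, was at 1.36, 2.76, 1.53, 1.41 and 1.80 CPM against 1.79, 8.34, 1.82, 3.17 and 2.39 CPM, where only mice 48 and 72 lay above all isotype mice (log2 fold change 0.98, SE 0.45, and 0.38 without mouse 48). The median of the list was −0.25 in the first range of library numbers (−0.91 without mouse 48) and 0.52 in the second. Of the granzyme, perforin and effector cytokine genes, 17 of 20 were higher with mouse 48 and 14 without it, none at an unadjusted p under 0.05. By range of library numbers, 8 of these 20 were higher in the first (median −0.20) and 11 in the second (0.15). Without mouse 48 the first range had 5 of 20 higher (median −0.40). Gzmb, the main killing protease of cytotoxic cells, was at 75.0, 52.9, 81.8, 34.7 and 54.1 CPM against 45.1, 88.9, 72.5, 74.3 and 51.0 CPM (log2 fold change 0.15, 95% interval −0.65 to 0.95, and 0.02 without mouse 48). Prf1, the pore-forming perforin, was at 54.9, 38.0, 56.0, 33.9 and 38.7 CPM against 37.9, 53.5, 65.3, 45.8 and 29.3 CPM (0.06, −0.72 to 0.85). Gzmb in mouse 48 lay above all isotype mice, and Prf1 lay above them all in mouse 59 and below them all in mouse 79. The intervals leave room for a change in either direction. Ifng, at 1.61, 1.57, 1.46, 0.786 and 0.554 CPM against 2.04, 3.12, 1.14, 1.55 and 1.04 CPM, had a log2 fold change of 0.56, and 0.26 without mouse 48.

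Foxp3, the master transcription factor of regulatory T cells, was at 1.17, 0.523, 0.625, 0.393 and 0.554 CPM in the isotype mice and 0.979, 3.12, 1.37, 0.943 and 1.53 CPM with anti-TGF-β. Apart from isotype mouse 46, every isotype mouse lay below every anti-TGF-β mouse (log2 fold change 1.25, SE 0.49, and 0.86 without mouse 48, and 0.92 and 1.04 within the 2 ranges of library numbers, or 0.48 in the first without mouse 48). Ikzf4, a partner of Foxp3 in these cells, had a log2 fold change of 1.14 (0.93 without mouse 48). The other defining members did not go with them: Il2ra had 0.09 (SE 0.40), Ikzf2 0.10 (SE 0.38) and Ctla4 −0.10 (SE 0.73), and −0.00, −0.26 and −0.73 without mouse 48. Over the list 12 of 18 genes were higher (7 of 18 without mouse 48). B and plasma cell genes stayed higher without mouse 48 in 20 of 25 (median 0.48, and 1.90 with it), where 6 of 25 were higher at an unadjusted p under 0.05 with mouse 48 (1.77% of all genes) and 1 without it (0.511%). That 1, the immunoglobulin gene Ighg3, had such a p in both (log2 fold changes 2.56 and 2.34). Its levels were low, averaging 0.173 and 1.10 CPM, and mice 43 and 79 lay within the isotype range. Of the 25 B and plasma cell genes, 22 were higher in the first range of library numbers (median 1.02) and 23 in the second (0.66). Without mouse 48 the first range had 12 of 25 higher (median −0.02), so the list then stayed higher in the second range only.

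Myeloid lists leaned on mouse 48. Of 18 neutrophil genes 18 were higher with it (median 0.81) and 10 without it (0.04). Of 30 macrophage and monocyte genes 27 were higher and then 11, of 17 genes of MHC class II presentation 16 and then 3, and of 7 Fc receptor genes 7 and then 1. Mouse 48 held the highest summed neutrophil level of all 40 mice, 777 CPM against 165 to 223 CPM in the other 4 anti-TGF-β mice. Il1a, an alarm cytokine of the IL-1 family, was an exception among the inflammatory genes. It was at 1.11, 1.49, 0.625, 1.02 and 1.80 CPM in the isotype mice and 2.45, 2.96, 2.58, 1.75 and 1.90 CPM with anti-TGF-β, where only mouse 72 overlapped the isotype range (log2 fold change 0.94, SE 0.34, and 0.83 without mouse 48). Mast cell, basophil and eosinophil genes were higher in 13 of 13 with mouse 48 and in 11 of 13 without it (median 0.62 and 0.30), and the mast cell protease gene Mcpt2 had a log2 fold change of 1.23 and then 1.25. Of these 13 genes, 9 were higher in the first range of library numbers (median 0.16) and 13 in the second (0.85). Without mouse 48 the first range had 3 of 13 higher (median −0.29), so there the list lay on the lower side.

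Type I interferon-stimulated genes were the largest list that stayed on the higher side without mouse 48. With it 52 of 54 were higher (median 0.29), and without it 50 of 54 (median 0.20), beside 54.9% and 49.2% of all genes. At an unadjusted p under 0.05, 7 were higher with it (1.77% of all genes) and 1 without it (0.511%). Within the ranges of library numbers the list had a median of −0.01 and 27 of 54 genes higher in the first, and 0.55 and 53 of 54 in the second. Without mouse 48 the first range had a median of −0.26 and 3 of 54 genes higher, so there the list lay on the lower side. By mouse, the mean log2 level of the list lay 0.16, 0.11, −0.08, −0.07 and −0.12 from the isotype mean in the isotype mice, and 0.02, 0.61, −0.24, 0.36 and 0.48 from it in the anti-TGF-β mice. Mice 48, 72 and 79 thus lay above all isotype mice, mouse 43 among them and mouse 59 below them all. The genes of the list are transcribed together from promoters that bind interferon-activated STAT and IRF factors, and the 250 bases before the transcription start are shown for 3 genes described here, Isg15 and Ifit3b of this list and Cxcl10 of the interferon-γ response list (RefSeq, GRCm38.p6), read along the gene's strand, with the core of the interferon-stimulated response element (GAAA, any 2 bases, GAAA), on either strand and overlaps included, in capitals.
Isg15 (chr4:156200819-156201068, minus strand): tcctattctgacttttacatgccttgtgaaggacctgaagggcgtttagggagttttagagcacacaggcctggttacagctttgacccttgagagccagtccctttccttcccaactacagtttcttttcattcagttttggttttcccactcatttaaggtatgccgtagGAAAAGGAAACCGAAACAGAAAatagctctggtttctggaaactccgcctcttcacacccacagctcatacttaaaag
Ifit3b (chr19:34607707-34607956, plus strand): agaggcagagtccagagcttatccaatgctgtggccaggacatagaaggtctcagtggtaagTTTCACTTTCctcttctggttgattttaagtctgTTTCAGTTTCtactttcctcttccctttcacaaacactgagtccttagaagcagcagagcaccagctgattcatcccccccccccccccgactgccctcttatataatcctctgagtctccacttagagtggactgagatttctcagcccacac
Cxcl10 (chr5:92348890-92349139, minus strand): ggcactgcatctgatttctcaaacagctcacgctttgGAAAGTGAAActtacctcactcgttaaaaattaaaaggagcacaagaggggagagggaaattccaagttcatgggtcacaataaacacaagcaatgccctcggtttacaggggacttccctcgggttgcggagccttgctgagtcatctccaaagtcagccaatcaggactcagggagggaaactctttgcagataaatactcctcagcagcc

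These letters stood in the 250 bases of 21 of the 40 tested genes of the list that had a promoter in the reference (52.5%), in 12 of 25 such genes of the interferon-γ response list (48%), and in 335 of 9909 tested genes with a promoter (3.38%). Isg15, a ubiquitin-like protein that is conjugated to others after interferon, holds 3 overlapping matches, and its levels were 79.7, 58.4, 73.3, 63.0 and 51.3 CPM in the isotype mice and 55.8, 88.6, 67.5, 110.0 and 94.7 CPM with anti-TGF-β. Mice 48, 72 and 79 lay above all isotype mice and the other 2 among them (log2 fold change 0.35, SE 0.16, and 0.33 without mouse 48), and the difference was 0.02 in the first range of library numbers (−0.15 without mouse 48) and 0.72 in the second. Ifit3b, which shares most of its sequence with Ifit3 and so may share reads with it, was at 13.0, 11.6, 12.5, 11.2 and 10.9 CPM against 12.7, 20.3, 12.5, 16.6 and 18.4 CPM (log2 fold change 0.44, SE 0.18, and 0.35 without mouse 48). The same 3 mice were high. Cxcl10, the T cell attractant that interferons induce, was at 95.1, 76.1, 102, 69.3 and 74.3 CPM against 126, 151, 71.5, 127 and 128 CPM, where mouse 59 alone fell within the isotype range (log2 fold change 0.54, SE 0.24, and 0.44 without mouse 48). Cxcl11, its neighbor in function, had 0.68 (0.59 without mouse 48). The interferon-γ response list had 38 of 41 genes higher with mouse 48 and 18 of 41 without it, and the genes of MHC class I presentation 16 of 24 and 11 of 24, with H2-K1 and H2-D1 at log2 fold changes of 0.02 and −0.01. By range of library numbers, 10 of 41 interferon-γ genes were higher in the first and 37 of 41 in the second (medians −0.11 and 0.32), and 5 of 24 and 24 of 24 MHC class I genes (medians −0.08 and 0.14). Without mouse 48 the first range had 5 of 41 interferon-γ genes (median −0.42) and 2 of 24 MHC class I genes (median −0.18) higher. A test of whether the effect of anti-TGF-β differed between the ranges of library numbers called no gene (0% of 15602; edgeR's quasi-likelihood test with Benjamini-Hochberg adjustment), and 199 genes had an unadjusted p under 0.05 (1.28%), among them 8 of the 54 type I interferon-stimulated genes. Without mouse 48 it again called none (0% of 15530), with 321 genes at that p (2.07%), among them 25 of those 54. In each of these 8 and 25 genes the effect was higher in the second range. DESeq2 was not run for this test.

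Genes of glycolysis and the hypoxia response were lower in most members with and without mouse 48. Of 36 genes 30 were lower with it (median −0.22) and 35 without it (median −0.19), where 54.9% and 49.2% of all genes were higher. The medians were −0.23 and −0.26 within the 2 ranges of library numbers (−0.12 in the first without mouse 48). With mouse 48, 2 were lower at an unadjusted p under 0.05 (0.549% of all genes), and without it none were (0.343%). Pdk1, the kinase that closes pyruvate's entry into mitochondria under low oxygen, was at 165, 134, 124, 180 and 140.3 CPM in the isotype mice and 122, 97.8, 153, 120.3 and 90.4 CPM with anti-TGF-β. Of the anti-TGF-β mice 4 lay below all isotype mice and mouse 59 lay within their range (log2 fold change −0.35, SE 0.15, and −0.30 without mouse 48). Egln1, an oxygen-sensing hydroxylase, averaged 228 and 192 CPM (−0.25, SE 0.12, and −0.21 without mouse 48), and the glycolytic enzyme gene Gpi1 989 and 814 CPM (−0.28, SE 0.14, and −0.21 without mouse 48). The mean log2 level of the list lay 0.22, −0.05, −0.09, 0.16 and −0.24 from the isotype mean in the isotype mice and −0.24, −0.20, 0.09, −0.19 and −0.48 from it in the anti-TGF-β mice. Mouse 79 alone lay below all isotype mice, so the spread between mice was as large as the difference. Vegfa, the hypoxia-induced vessel growth factor, averaged 244 and 206 CPM (−0.25, SE 0.16, and −0.21 without mouse 48). The smaller lists of TGF-β receptors and Smads and of the unfolded protein and heat shock response also had most members lower in both, with 9 of 14 and 16 of 24 lower with mouse 48 and 13 of 14 and 16 of 24 lower without it. Of 50 cell cycle genes 23 were higher with mouse 48 and 34 without it, and 13 were higher in the first range of library numbers (20 without mouse 48) and 47 in the second (medians −0.07, then −0.02, and 0.09).

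**Figure D4:**
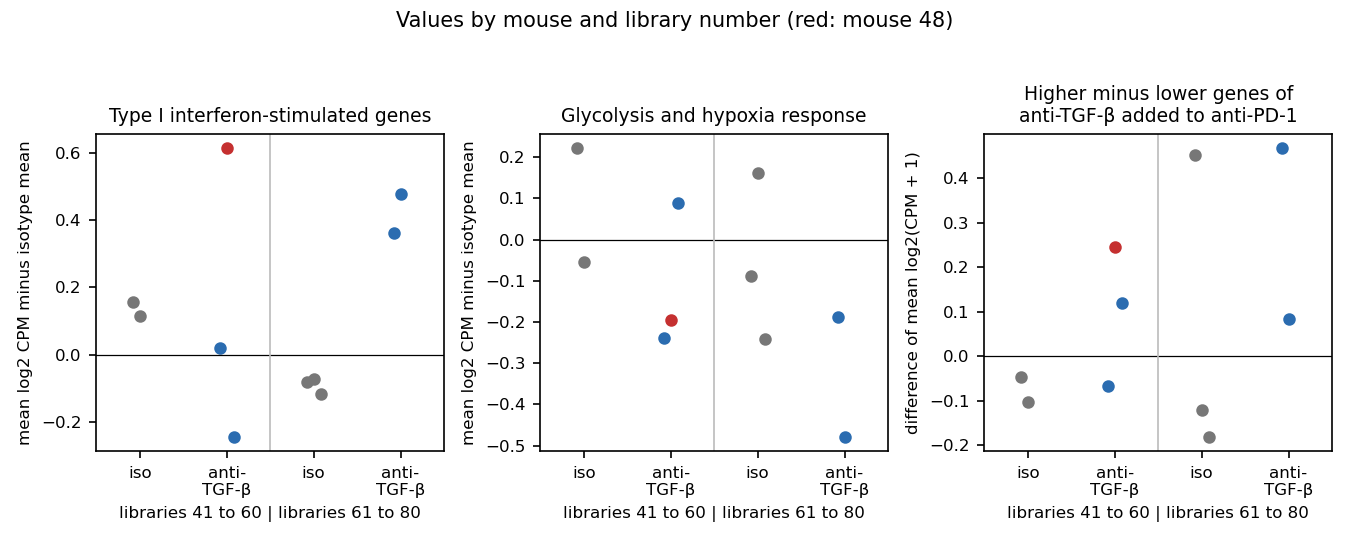
Values of each tumor, split by library number (41 to 60 left of the grey line, 61 to 80 right), isotype grey, anti-TGF-β blue, mouse 48 red: mean log2 CPM of 2 gene lists minus the isotype mean, and the mean log2(CPM + 1) of genes higher minus that of genes lower when anti-TGF-β was added to anti-PD-1. Interferon-stimulated genes lie above the isotype mice in mice 48, 72 and 79, and in the right panel isotype mouse 63 (0.45) lies beside anti-TGF-β mouse 72 (0.47).

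The same antibody was also given on top of anti-PD-1 FcS, and the comparison of those 5 mice with the 5 given anti-PD-1 FcS alone shares no mouse with the one above. There edgeR's quasi-likelihood test with Benjamini-Hochberg adjustment called 1 gene (0.00678% of 14760), Isg15, with a log2 fold change of 0.94 (adjusted p = 0.0251), and 2521 genes had an unadjusted p under 0.05 (17.1%), 1033 higher (7%) and 1488 lower (10.1%), and 1386 to 4207 genes had such a p with 1 mouse left out, the most without the combination mouse of library 53. The call of Isg15 did not hold in 8 of the 10 fits that left out 1 of these mice, DESeq2 called 78 genes, and edgeR called 1734 once the combination mouse of library 53 was left out. Genes of skeletal muscle were lower in the combination in 18 of 19, 11 of them at an unadjusted p under 0.05, and the part of neighboring muscle in these differences was not tested. Of the 342 genes with such a p for anti-TGF-β alone 69 were among them, which is 20.2% of the former and 2.74% of the latter list, and 68 of the 69 had the same sign. Without mouse 48 the shared genes were 28, of which 27 had the same sign. The 69 included, in the higher direction, Ccl7 (0.61 alone and 0.71 added), Ifit3b (0.44 and 0.67) and Cxcl10 (0.54 and 0.89), and in the lower direction Ccng2 (−0.38 and −0.41), Zfp395 (−0.25 and −0.25) and Pdk1 (−0.35 and −0.41); the exception was Enox1 (0.89 and −1.08). Over the 2521 genes, 2105 (83.5%) had the same sign in anti-TGF-β alone against isotype, where 65.1% of all genes did. The shares were 81.7% and 64.3% without mouse 48, 76.1% and 63.6% in the first range of library numbers (68.7% and 58.7% there without mouse 48), and 79.5% and 61.5% in the second, for the 2521 and for all genes in turn. In anti-TGF-β alone the median log2 fold change was 0.08 for the 1033 higher genes and −0.08 for the 1488 lower ones. Their medians of 0.34 and −0.34 in the comparison that chose them are a description and give no comparison of sizes. Genes move together within a tumor, so these shares do not count independent cases. By mouse, the mean log2 level of the higher minus that of the lower genes lay −0.05, −0.10, 0.45, −0.12 and −0.18 from the isotype mean in the isotype mice and −0.07, 0.24, 0.12, 0.47 and 0.08 from it with anti-TGF-β. Isotype mouse 63 was nearly as high as anti-TGF-β mouse 72, and mouse 43 lay among the isotype mice, so the groups overlapped.

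In that second comparison Fn1 was lower by a log2 fold change of −0.71 (SE 0.20), beside −0.39 for anti-TGF-β alone, Smad7 by −0.33 beside −0.22, and Skil by −0.43 beside −0.04. Of the 35 feedback and direct target genes 10 were lower at an unadjusted p under 0.05 and none higher (10.1% of all genes were lower at that p), with a median of −0.20 where 50.4% of all genes had a log2 fold change above 0, and 1 was lower at that p with anti-TGF-β alone. Of the type I interferon-stimulated genes 30 of 54 were higher at that p there, and of the genes of MHC class I presentation 17 of 24 (median 0.44, beside 0.03 alone), where 7% of all genes were. Gzma, a granzyme of cytotoxic cells, was at 17.1, 24.6, 47.4, 17.9 and 38.7 CPM in the isotype mice and 20.9, 27.3, 26.1, 44.1 and 22.8 CPM with anti-TGF-β alone, where the groups overlapped throughout (log2 fold change −0.05, SE 0.34), and it had a log2 fold change of 1.17 (SE 0.34) when anti-TGF-β was added. A test of the difference between the 2 effects called no gene (0% of 14760; smallest adjusted p = 0.101, for Enox1), with 340 genes at an unadjusted p under 0.05 (2.3%), among them Gzma, Isg15 and H2-K1. With 1 mouse left out this number ran from 189, without isotype mouse 63, to 1763, without the combination mouse of library 53, and each of these 2 fits called 1 gene (adjusted p = 0.0159 and 0.0323, edgeR's quasi-likelihood test with Benjamini-Hochberg adjustment). DESeq2 called 2 genes in this test, both lower in the combination than the separate effects would give.

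**Figure D5:**
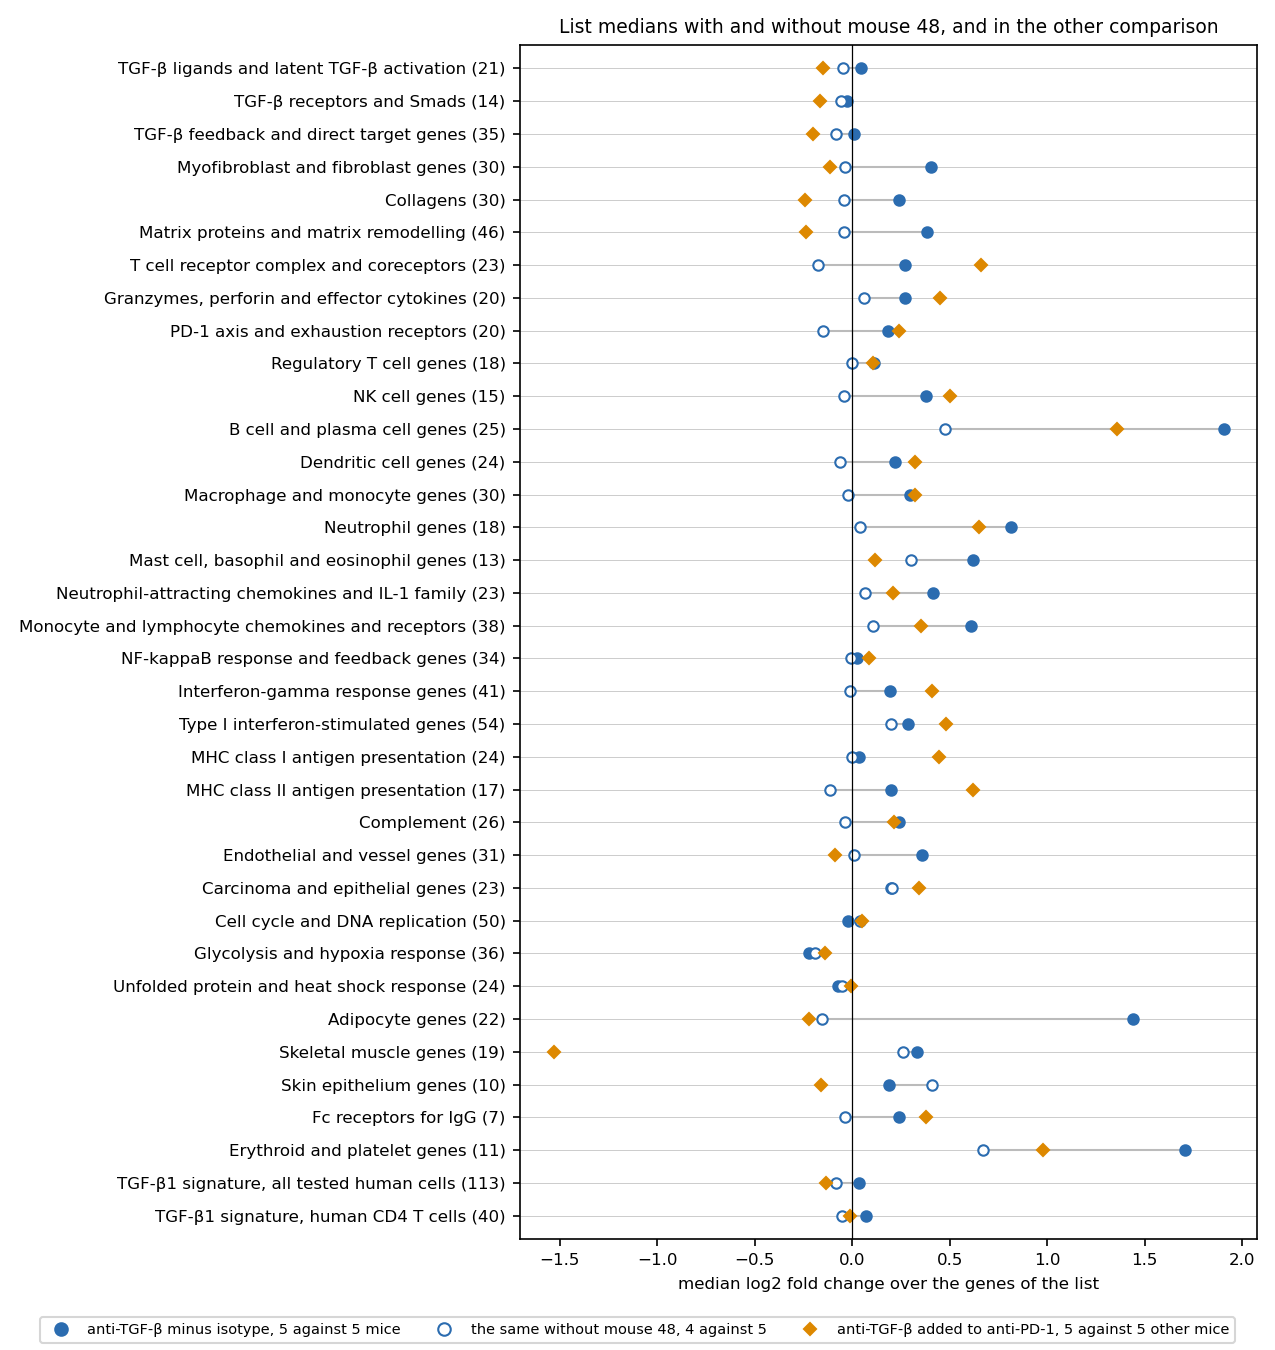
Median log2 fold change over the tested genes of each list (number in brackets), for anti-TGF-β against isotype with all 5 against 5 mice (filled blue), without mouse 48 (open blue) and for anti-TGF-β added to anti-PD-1 in 5 against 5 other mice (orange). Leaving out mouse 48 takes most stromal and myeloid lists to about 0, whereas the interferon-stimulated list stays at 0.20 and the glycolysis and hypoxia list at −0.19.

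Against the antibodies to GARP:TGF-β1, which block release of TGF-β1 from GARP only, anti-TGF-β alone differed in no gene past an adjusted p of 0.05 (edgeR's quasi-likelihood test with Benjamini-Hochberg adjustment; 0% of 14760 genes for each form). At an unadjusted p under 0.05 there were 342 genes against the wild-type form (2.32%) and 664 against the Fc-dead form (4.5%), and DESeq2's Wald test called 0 in both. The numbers at that unadjusted p were 236 and 248 without mouse 48, and ran from 159, without the wild-type mouse of library 73, to 802 and from 248 to 1106 with 1 mouse left out, both highest without mouse 59. A comparison of 5 against 5 mice that passes no gene does not show that the antibodies act alike.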

How the data were processed

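RNA from 1 piece of tumor per mouse was made into stranded, poly(A)-selected libraries and sequenced in paired reads of 100 bases. The authors deposited whole-number counts per gene for all 40 mice. The submitters' processing notes name STAR 2.5.3a, SAMtools 1.6 and HTSeq 0.9.1; the strand setting of the counting and the annotation release are not given in the sources used here. Of 54087 rows, 31326 held a count and 14760 passed edgeR's filterByExpr; 27 names had been turned into dates and were left as they stood.

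Groups follow the labels, 5 mice each. All 40 mice entered 1 model of 8 groups, with TMM scaling and edgeR's robust quasi-likelihood test (edgeR 4.0.16, limma 3.58.1, R 4.3.3), and p-values were adjusted by Benjamini-Hochberg over all genes tested. Intervals are 95% intervals of the fit. List levels per mouse are means of edgeR's log2 CPM (prior count 2), and the higher-minus-lower score used log2(CPM + 1). Library totals were compared by an exact permutation test. Alternatives were DESeq2's size factors, DESeq2 1.42.0 (Wald test), no filter, only the groups compared, the range of library numbers as a covariate, and each mouse left out. The fits without mouse 48 that carry the covariate, the test between ranges of library numbers and the list values, values within the first range and non-overlap counts without mouse 48 were chosen after seeing the data. The fit was tested on simulated data.

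The genes, lists and comparison were chosen with earlier results of these data known. Genes named are the 15 higher and 15 lower with the smallest p, up to 4 per list and direction, the first 4 of each list, genes past an adjusted p of 0.05 if 10 or fewer, and Prf1, Gzmb, Tnf, Ifng, Lrrc32, Itgb8, Foxp3, Pdcd1, Cd274, Ptprc, Cd3e, Cd4 and Cd8a. Positions are from GENCODE M21 (GRCm38) and promoters from RefSeq (GRCm38.p6). Counts of a gene and of a near-identical copy may be split. No 2 libraries of a group agreed within sampling noise.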

Additional observations from a re-analysis of the deposited data

Results flagged for a closer look

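Values that stand far from the other 4 mice of their group by Dixon's test were looked for in 120 groups of 5 and found in 12, where chance gives about 1 in 20. These groups covered 36 gene lists, the higher-minus-lower score and a part of the named genes. Cxcr2, Cd4 and C1qtnf3 were not among them, so the tally does not cover every extreme value printed above. Anti-TGF-β mouse 48 accounted for 9 of the 12. As mean log2 level from the isotype mean, it stood at 3.17 for adipocyte genes, 3.03 for B cell and plasma cell genes, 2.37 for neutrophil genes, 1.595 for monocyte and lymphocyte chemokines, 1.24 for endothelial genes, 1.18 for macrophage and monocyte genes, 1.16 for matrix genes and 0.678 for the TGF-β1 signature of CD4 T cells. It was also apart at 3.12 CPM of Foxp3.

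Isotype mouse 63 stood apart in 2 of the values examined, 109.7 CPM of Tgfb1 and a difference of 0.453 between the genes higher and the genes lower when anti-TGF-β was added to anti-PD-1. Anti-TGF-β mouse 72 stood apart at 44.1 CPM of Gzma. What set these mice apart was not tested.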

How the results depend on the processing

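For anti-TGF-β against isotype, edgeR called 0 genes under every alternative and with each mouse left out, with 127 to 718 genes at an unadjusted p under 0.05, and DESeq2's Wald test called 1. Without a filter on low counts 895 genes had such a p, and 197 with only the groups compared in the model. For adding anti-TGF-β to anti-PD-1, DESeq2 called 78 genes, only the groups compared gave 0, and leaving out 1 mouse gave 0 to 1734, the highest without the combination mouse of library 53. The test of the difference between the effects gave 2 genes in DESeq2 and 0 to 1 with a mouse left out. Both comparisons with anti-GARP:TGF-β1 gave 0 calls throughout. The difference in mean library total was −467156 counts, and −915061 to 45462.8 with a mouse left out. Of 43 named genes, 36 never turned sign in 679 fitted values. The 15 higher and 15 lower among them were chosen by their p in this comparison, so a steady sign was likely for them beforehand. All genes that turned sign were among the others, those named whatever their p. With 1 mouse left out, log2 fold changes ranged from −0.10 to 0.19 for Prf1, −0.16 to 0.45 for Tnf, −0.36 to 0.25 for Pdcd1, −0.15 to 0.39 for Cd274, −0.055 to 0.59 for Ptprc, −0.22 to 0.37 for Cd3e and −0.22 to 0.47 for Cd8a. With library numbers as a covariate and without mouse 48 they were −0.17 for Tnf, −0.33 for Pdcd1, −0.15 for Cd274, −0.061 for Ptprc, −0.21 for Cd3e and −0.20 for Cd8a. Beyond the samples left out, the cause was not tested. No paired analysis was possible because the labels give each library its own number, and replicate numbers here follow accession order only. At 12.3 to 16.3 counts per CPM, genes near 1 CPM rest on few counts.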

Other observations

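Carcinoma and epithelial genes were higher in 16 of 23 with anti-TGF-β (median log2 fold change 0.20) and in 18 of 23 without mouse 48 (0.20), none at an unadjusted p under 0.05, where 54.9% and 49.2% of all genes were higher with and without that mouse. Erythroid and platelet genes were higher in 11 of 11 (median 1.71, 8 at that p, where 1.77% of all genes were higher at that p) and in 9 of 11 without mouse 48 (0.67, none at that p). Complement genes were higher in 23 of 26 and then in 12 of 26, NK cell genes in 13 of 15 and then 6 of 15, dendritic cell genes in 19 of 24 and then 8 of 24, and genes of the PD-1 axis and exhaustion in 16 of 20 and then 3 of 20. Endothelial genes were higher in 26 of 31 and then 16 of 31, and genes of the NF-κB response in 19 of 34 and then 15 of 34. Genes of neutrophil-attracting chemokines and of the IL-1 family and related cytokines were higher in 16 of 23 and then 14 of 23, skeletal muscle genes in 15 of 19 in both, and skin epithelium genes in 9 of 10 in both. Within the first range of library numbers 15 of 19 skeletal muscle genes were higher (17 without mouse 48), and 8 of 19 in the second. For skin epithelium genes these counts were 4, 4 and 8 of 10, and for carcinoma and epithelial genes 11, 11 and 19 of 23.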
